A study of Mus musculus with 4 samples.

Results

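The isoforms of 10 splicing factor genes of the SR (serine/arginine-rich) family were followed in mouse neural stem cells, using amplified cDNA and long reads of a Nanopore sequencer. The genes were Srsf1, Srsf2, Srsf3, Srsf5, Srsf6, Srsf7, Srsf10, Srsf11, Tra2a and Tra2b, taken from the count table by the GENCODE M21 symbol of the Ensembl gene in each entry. They made up 10 of 14949 genes and 111 of 46637 isoform entries, of which 40 were plain Ensembl transcripts, 12 were numbered variants of one, and 59 were isoforms named only by a read. The cells came from the neocortex of floxed embryos, were grown as neurospheres and received lipid nanoparticles (LNP) for 3 days. The control carried Tut1f/f and was given an empty LNP. The other libraries received LNP with Cre mRNA, which deletes floxed exons, and carried Tut1f/f (Tut1f/f;Cre), Trp53f/f (Trp53f/f;Cre) or both floxed genes (Tut1f/f;Trp53f/f;Cre, below the double-floxed library). Tut1 encodes the uridylyltransferase that extends the oligo(U) tail of U6 snRNA, and Trp53 encodes the tumour suppressor p53. There was 1 library per group, a group being a genotype with its treatment, so none of the differences could be checked in a replicate. Cre mRNA was given in all libraries but the control, so an effect of Cre mRNA, of genotype and of a single library cannot be told apart in comparisons with Tut1f/f, and those 3 comparisons share that library.

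SR proteins bind exonic enhancers through an RNA recognition motif and recruit the spliceosome through their arginine/serine-rich domain. Tra2a and Tra2b are SR-like activators of exon inclusion, while Srsf10 and Srsf11 are less canonical members. Many genes of the family limit their own output with a poison exon, an alternative exon that carries an in-frame stop codon and sends the transcript to nonsense-mediated decay (NMD). Others do so by retaining an intron or by ending the transcript early.

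GENCODE M21 (GRCm38) annotated 16 NMD transcripts in 9 of the 10 genes, with none for Srsf10. A poison exon, here an exon of an NMD transcript that holds the premature stop and lies within an intron of the longest coding transcript, was found 8 times in 6 genes. Its length ranged from 109 to 460 bases, and 4 of the 8 were not a multiple of 3. The exons lay at chr17:29039454-29039909 in Srsf3 (+ strand), chr2:162932815-162933082 in Srsf6 (+ strand), chr17:80204622-80205081 in Srsf7 (− strand), chr6:49252803-49253108 in Tra2a (− strand) and chr16:22258986-22259261 in Tra2b (− strand). A second annotated version of the Tra2b exon shared its first base and its stop. Srsf11 held 2 of them within the same intron, at chr3:158024123-158024231 and chr3:158023243-158023359 (− strand). The stretch from the first base of each exon to its stop is given here from the GENCODE transcripts, because this is what turns the isoform into an NMD target. Capitals mark the stop codon.
Srsf3 (chr17:29039454-29039487, +): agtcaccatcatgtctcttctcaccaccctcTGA
Srsf6 (chr2:162932815-162932966, +): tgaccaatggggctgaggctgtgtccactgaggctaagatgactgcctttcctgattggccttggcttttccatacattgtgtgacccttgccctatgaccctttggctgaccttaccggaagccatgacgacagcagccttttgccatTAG
Srsf7 (chr17:80205054-80205081, −): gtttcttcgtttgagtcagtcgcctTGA
Srsf11, exon of 109 bases (chr3:158024209-158024231, −): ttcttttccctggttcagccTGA
Srsf11, exon of 117 bases (chr3:158023310-158023359, −): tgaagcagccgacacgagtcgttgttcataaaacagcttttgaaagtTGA
Tra2a (chr6:49252965-49253108, −): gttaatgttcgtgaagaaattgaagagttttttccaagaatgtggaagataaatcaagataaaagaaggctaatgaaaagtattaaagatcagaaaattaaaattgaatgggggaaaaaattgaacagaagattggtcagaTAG
Tra2b (chr16:22259181-22259261, −): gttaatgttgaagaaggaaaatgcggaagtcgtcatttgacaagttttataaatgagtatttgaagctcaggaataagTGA

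All of these stops lay at least 67 bases upstream of the last exon junction, beyond the 50 bases past which a stop is taken as premature. The paralogous exons of Tra2a and Tra2b began with the same 9 bases and had a GC content of 30.1% and 32.6%, below the 43.1% to 51.3% of the Srsf exons. NMD transcripts of Srsf1, Srsf2 and Srsf5 did not meet the definition, and those of Srsf2 kept the stop of the longest coding transcript. Srsf1 lies at chr11:88047373-88053755 (+ strand), Srsf2 at chr11:116849901-116853094 (− strand), Srsf5 at chr12:80945504-80950507 (+ strand) and Srsf10 at chr4:135855747-135869908 (+ strand). In the annotation Srsf1 overlaps Gm11508, Srsf2 overlaps Mettl23 and Mfsd11, Srsf11 overlaps Gm43362 and Tra2a overlaps Gm43980, and how the counting treated strand is not known, so reads of these pairs may be mixed.

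Srsf10 has another route to a non-coding product. Transcript ENSMUST00000129718, a processed transcript of 3 exons, reads past the donor at which the coding transcripts splice for 62 bases (chr4:135858410-135858471, + strand) and then joins a terminal exon at chr4:135858842-135859231, inside the intron of the coding transcripts. The stretch that it keeps is shown because it begins at the splice site that the coding transcripts use, with the first 8 bases in capitals.
Srsf10: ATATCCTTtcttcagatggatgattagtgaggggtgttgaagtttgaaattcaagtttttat
These letters, ATATCCTT, match the known donor sequence of U12-type introns, the rare class removed by the minor spliceosome. Of 29310 annotated introns of protein-coding transcripts whose first bases lie in an exon of another transcript of the gene, read on the gene's strand, 45 (0.154%) began with them.

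Gene reads, those assigned to an entry with a gene, ranged from 2863392 to 4244467 per library, and reads that named no gene made up 17.2% of all reads in Tut1f/f and 27.3% to 30.2% in the others. Of 9 neural stem cell markers 8 were read in every library, with a summed level of 11578 to 12925 CPM, and Notch1 was at 0. CPM are reads of a gene per 1e6 gene reads after the TMM scaling explained below. The sum was mostly Fabp7, and other markers of the list moved with the libraries. Hes1 was at 149, 505, 466 and 447 CPM, Nes at 139, 309, 296 and 197 CPM and Vim at 1259, 767, 635 and 615 CPM, with the control first, followed by Tut1f/f;Cre, by Trp53f/f;Cre and by the double-floxed library. The part of these differences in the results was not tested. The 4 microglial markers were at 0, the 6 neuronal markers summed to 90.6 to 105 CPM with Rbfox3 at 0, and the 5 astrocyte markers to 13.8 to 55.1 CPM with Gfap at 0. The 6 oligodendrocyte-lineage markers summed to 380 CPM in the control, 641 in Tut1f/f;Cre, 746 in Trp53f/f;Cre and 515 in the double-floxed library. Upf1, a core NMD factor that all cells use, was listed at 0 in every library too, so a 0 in these data need not mean that a gene was not expressed. Tut1 as a whole had 37 reads in the control, 11 in Tut1f/f;Cre, 14 in Trp53f/f;Cre and 27 in the double-floxed library, or 9.26, 3.67, 4.12 and 9.04 CPM. Cre removes exon 2 of Tut1 and can leave the rest of the transcript, so this total does not test the deletion. The 2 annotated entries that hold exon 2 had 31, 3, 7 and 9 reads, led by the full-length ENSMUST00000096239 with 28, 0, 2 and 6. They were thus few in both libraries with floxed Tut1 and Cre, but also in Trp53f/f;Cre, in which Tut1 was not floxed. The exons of the other 3 entries, named by a read, are not known. Trp53 had 175, 67, 10 and 19 reads, fewest in both libraries labelled as lacking it. Xist was read only in the Tut1f/f;Cre and Trp53f/f;Cre libraries (44 and 49 reads), and 4 Y-linked genes only in Tut1f/f and the double-floxed library. Names below are those of the labels. In bulk RNA, fewer cells of a type and less RNA per cell cannot be told apart. Intervals are 95% and cover counting error only, since the amplified reads carry no molecular identifiers and cannot be taken as separate molecules.

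The level of each gene was its share of gene reads in CPM after TMM scaling, the trimmed-mean adjustment for library composition. Tra2b, an activator of exon inclusion, was at 204 CPM in the control, 96.5 in Tut1f/f;Cre, 83.8 in Trp53f/f;Cre and 157 in the double-floxed library. Srsf5, an SR protein first described as induced in regenerating liver, was at 304, 134, 131 and 215 CPM in the same order. Srsf3, the smallest SR protein and a regulator of both splicing and mRNA export, was at 415, 257, 244 and 355 CPM. In these 3 genes the control was highest, the double-floxed library came second, and Tut1f/f;Cre and Trp53f/f;Cre were lowest with overlapping intervals. The 2 libraries with the higher levels were those with reads of Y-linked genes and with more reads of the astrocyte marker Aldh1l1 (187 and 71 against 16 and 11). They also had lower sums of the oligodendrocyte-lineage markers (380 and 515 against 641 and 746 CPM). The part of these differences in the result was not tested.

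**Figure D1:**
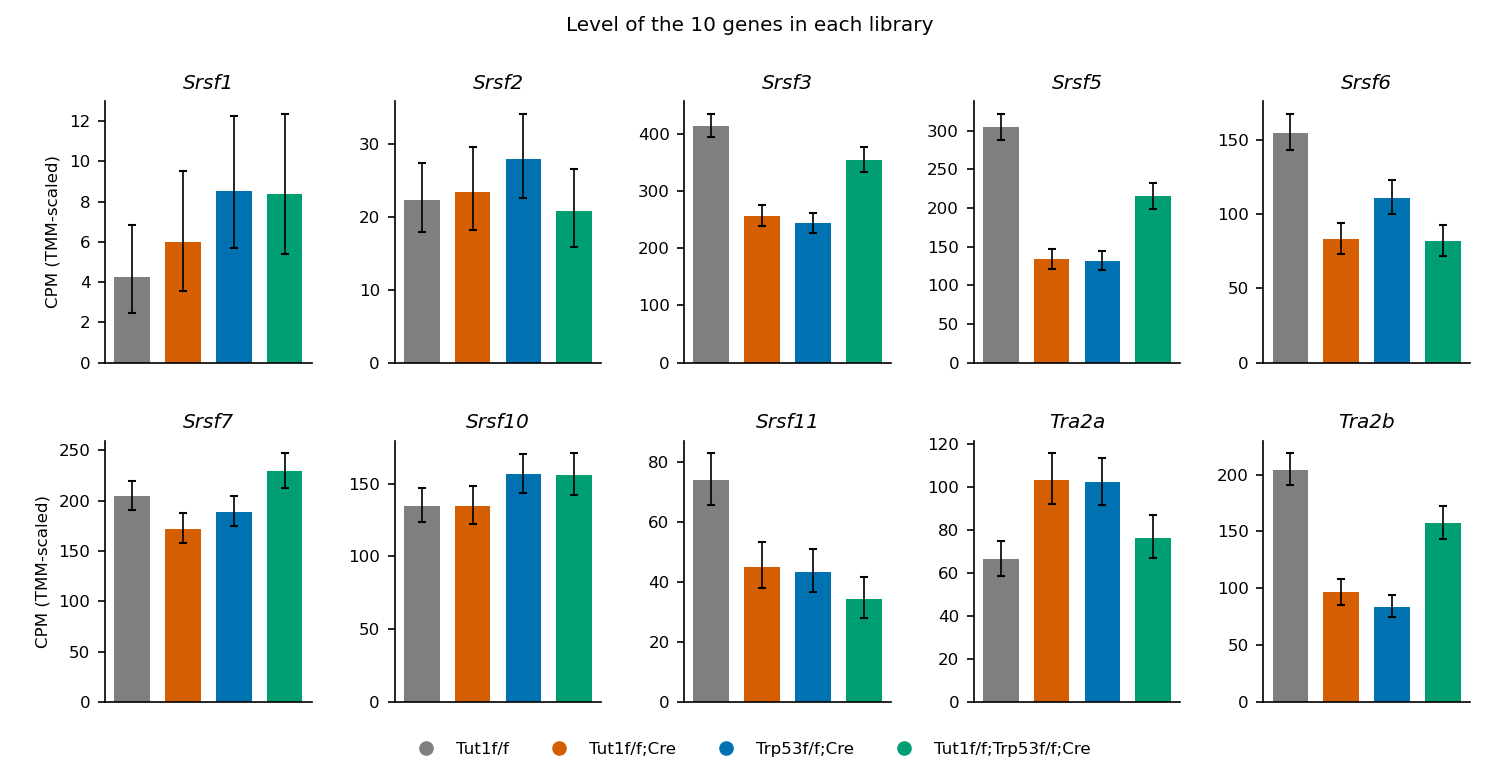
Level of each gene in TMM-scaled CPM (bars, linear axes from 0) in the 4 libraries, with exact Poisson 95% intervals and 1 library per group. Srsf3, Srsf5 and Tra2b share a pattern with the lowest levels in Tut1f/f;Cre and Trp53f/f;Cre, whereas Srsf10 lies between 135 and 157 CPM in all 4.

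Srsf6, an SR protein with paired RNA recognition motifs, was at 155, 83.1, 111 and 81.7 CPM, and Srsf11, an SR-like nuclear protein, at 73.8, 45.1, 43.2 and 34.2 CPM. Both were highest in the control by more than their intervals, and for Srsf6 the Tut1f/f;Cre library and the double-floxed library did not differ beyond theirs. Tra2a, the paralog of Tra2b, was lowest in the control, where Tra2b was highest, with 66.3, 104, 102 and 76.4 CPM, but the control and the double-floxed library did not differ beyond their intervals. Srsf7, which shapes splicing and 3′ end choice, varied only from 172 to 229 CPM. Srsf10, known for its dephosphorylated form that represses splicing, varied from 135 to 157 CPM, and Srsf2, a classical SR protein, from 20.8 to 27.9 CPM with overlapping intervals in all libraries. Srsf1, the founding SR protein, rested on 17 to 29 reads per library (4.25 to 8.53 CPM), so only large differences would be detectable. Neither Srsf1 nor Srsf2 had reads on an entry of coding biotype, so their levels are those of their other entries.

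A gene was counted as different between 2 libraries when its level differed at least 2-fold and the exact 95% interval of the ratio excluded no change. In Tut1f/f;Cre against Tut1f/f, 2 of the 10 genes were lower and 0 higher, where 12.8% of 9882 genes were lower and 13.1% were higher. The lower genes were Srsf5, with a log2 ratio of -1.19 (interval -1.35 to -1.02), and Tra2b, with a log2 ratio of -1.08 (-1.28 to -0.89). With scaling by library totals, Tra2b was at -0.98 and was no longer counted. In Trp53f/f;Cre against Tut1f/f the same 2 genes were lower, with log2 ratios of -1.21 for Srsf5 and -1.28 for Tra2b, and Srsf1 was higher at 1.0 (0.09 to 1.96). Over all genes 14.3% were lower and 13.2% higher in that comparison. Srsf1 was at 0.98 with DESeq2 size factors and so fell outside the threshold.

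In the double-floxed library against Tut1f/f, only Srsf11 was lower (log2 ratio -1.11, interval -1.45 to -0.78), beside 9.94% of all genes lower and 10.1% higher. With library totals Srsf11 was at -0.96 and was not counted, whereas Srsf1 was at 1.12 and was. None of the 10 genes was different between the libraries that had received Cre mRNA. Of all genes, 7.07% differed between the double-floxed library and Trp53f/f;Cre, 3.38% between Tut1f/f;Cre and Trp53f/f;Cre, and 4.58% between the double-floxed library and Tut1f/f;Cre. The share of SR genes counted as different was thus near that of all genes or based on 1 to 3 genes.

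**Figure D2:**
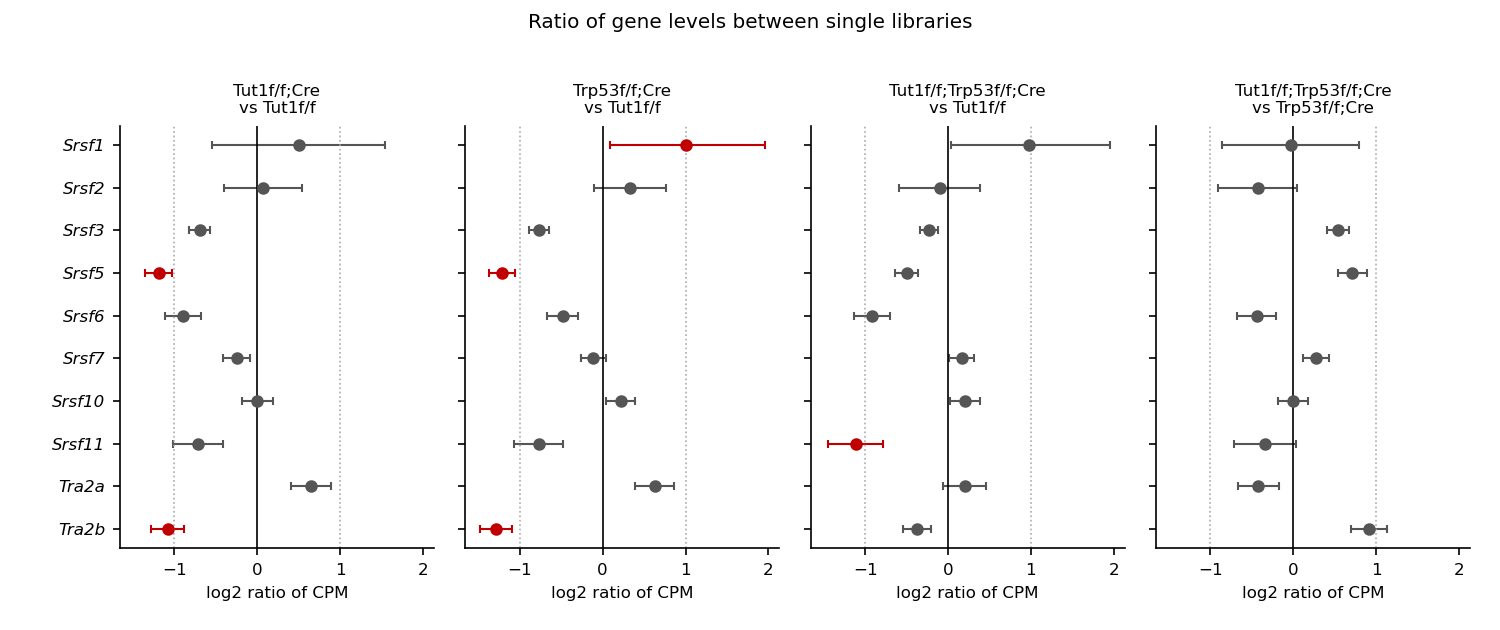
Log2 ratio of CPM for the 10 genes in 4 comparisons of single libraries, with exact 95% intervals of counting error. Red points differ at least 2-fold (dotted lines) with an interval that excludes no change, as Srsf5 and Tra2b do in the first and second comparison, and no gene does in the last.

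The median log2 ratio over the 10 genes was -0.47, -0.30 and -0.16 in Tut1f/f;Cre, Trp53f/f;Cre and the double-floxed library against Tut1f/f, where the median over all genes was 0.02, 0.02 and -0.02. Their summed level was 1585 CPM in the control (interval 1546 to 1624), 1055 in Tut1f/f;Cre, 1098 in Trp53f/f;Cre and 1334 in the double-floxed library. For the double-floxed library against Tut1f/f the summed log2 ratio was -0.25 and moved to -0.10 with library totals. The double-floxed library exceeded Trp53f/f;Cre by 0.28 on the log2 scale in summed level (0.22 to 0.35), with Tra2b at 0.91 and Srsf5 at 0.71, while Tut1f/f;Cre was below Tut1f/f by 0.59 (log2 ratio -0.59, interval -0.65 to -0.53). Over the 10 genes, however, the median log2 ratio between the double-floxed library and Trp53f/f;Cre was -0.02, with 4 genes above 0 and 6 below, so the higher sum came from a few abundant genes.

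To use all libraries together, gene counts were fitted in edgeR with additive terms for Tut1 and Trp53 status, which leaves 1 residual degree of freedom. The fit has no term for Cre mRNA, so part of a difference between the control and the other libraries counts as residual variation. No SR gene was called at an adjusted p under 0.05 for either term. In this fit a lack of calls does not show a lack of differences. The estimated Tut1 effect ranged from a log2 fold change of -0.67 (SE 0.49) for Srsf6, whose unadjusted p was 0.17 (edgeR), to 0.22 (SE 0.74) for Srsf1. The Trp53 effect ranged from -0.59 (SE 0.53) for Srsf11 to 0.74 (SE 0.74) for Srsf1. Over all genes edgeR called 0 of 9882 (0%) for Tut1, with 171 at an unadjusted p under 0.05, and 1 (0.0101%) for Trp53, while DESeq2 called 0 for Tut1, with 70 at an unadjusted p under 0.05. Isoform usage, fitted in the same design with edgeR's diffSpliceDGE, gave 0 calls among 46 SR isoforms and 0 of 10949 (0%) over all genes, with 44 at an unadjusted p under 0.05. A fit without the Trp53f/f;Cre library and without the Trp53 term called 7 of 55 SR isoforms and 296 of 13310 in all, but it sets the control alone against both other libraries, so Tut1 status and Cre mRNA are the same contrast there, and the lone control is assumed to vary like the others.

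Isoform usage is the percentage of a gene's reads that an isoform took. For each pair of libraries it was set in a Fisher's exact test (two-sided), adjusted over all isoforms tested and counted where the adjusted p was under 0.05 and the shares lay 10 or more percentage points apart. This compares libraries, not conditions. Against Tut1f/f, 10 of 65 SR isoforms tested differed in Tut1f/f;Cre (8.66% of 18376 over all genes), 11 of 69 in Trp53f/f;Cre (9.12% of 18549) and 11 of 68 in the double-floxed library (6.49% of 18845). Together they were 14 isoforms of Srsf2, Srsf7, Srsf10, Srsf11 and Tra2a, of which 8 were counted in all 3 comparisons. Between libraries with Cre mRNA none differed. This held for the double-floxed library against Trp53f/f;Cre (0 of 59, with 1.24% of all isoforms), for Tut1f/f;Cre against Trp53f/f;Cre (0 of 55, with 0.222%) and for the double-floxed library against Tut1f/f;Cre (0 of 54, with 0.15%). The 8 isoforms thus set the library without Cre mRNA apart from the other 3, including Trp53f/f;Cre, in which Tut1 was not floxed but had few reads, while the other 6 did so in 1 or 2 comparisons. The control also stood apart in its share of reads without a gene and in the gene CT010467.1, which took 18.7% of gene reads there against 9.75%, 8.91% and 5.46% in the others, and the part of both in the result was not tested.

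Srsf10 showed the largest difference in usage among the SR isoforms in Tut1f/f;Cre and Trp53f/f;Cre against the control, and the second largest in the double-floxed library, after a Tra2a isoform. Its early-ending transcript ENSMUST00000129718, whose retained stretch is printed above, took 111 of 539 reads in Tut1f/f (20.6%, with a Wilson interval of 17.4% to 24.2%). It took 231 of 404 reads (57.2%) in Tut1f/f;Cre, 323 of 533 (60.6%) in Trp53f/f;Cre and 238 of 466 (51.1%) in the double-floxed library. All libraries with Cre mRNA lay above the control by at least 30.5 percentage points with no overlap of intervals, and the adjusted p was 2.49e-28, 1.04e-38 and 1.83e-21 in the exact tests. The level of this transcript was 27.8 CPM in the control against 77.1, 95 and 79.7 CPM. Plain processed transcripts of all genes also took their lowest share in the control, 0.617% of gene reads against 0.846%, 0.848% and 0.854%.

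The coding transcripts of Srsf10 took a smaller share in the same libraries. ENSMUST00000105853, which holds its longest coding sequence, took 34.0% of reads in Tut1f/f and 13.4%, 10.5% and 11.8% in Tut1f/f;Cre, Trp53f/f;Cre and the double-floxed library, and differed in all 3 comparisons. ENSMUST00000126641, another coding transcript, took 26.2%, 12.9%, 10.7% and 16.3%, and differed in the first and second. The coding transcript ENSMUST00000097844 took 12.1%, 4.95%, 5.82% and 6.87%, which was under the threshold of 10 points. Summed, plain protein-coding transcripts were at 101 CPM (75.1% of the gene's reads) in the control and at 44.1, 45.0 and 57.9 CPM (32.7%, 28.7% and 37.1%) in the others. The gene total thus stayed between 135 and 157 CPM while its coding share was at most 37.1% in the libraries with Cre mRNA. An isoform named only by a read added 5 reads in the control and 25, 41 and 39 in the others.

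**Figure D3:**
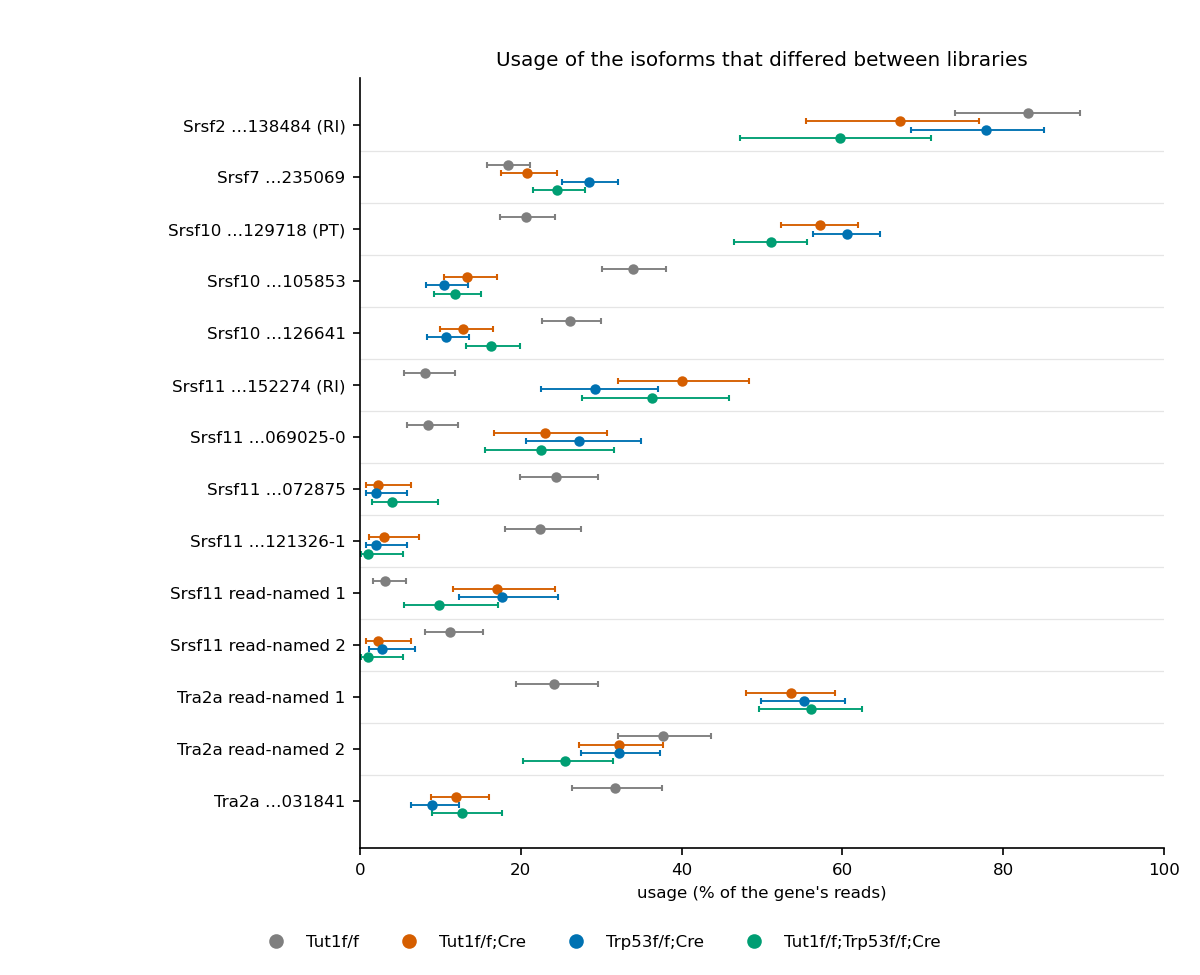
Usage of the 14 isoforms that differed in at least 1 pair of libraries, in percent of the gene's reads with Wilson 95% intervals. RI marks retained-intron and PT processed transcripts, dots stand for ENSMUST00000, and read-named isoforms are numbered by their reads. For ENSMUST00000129718 of Srsf10, ENSMUST00000152274 of Srsf11 and the first read-named Tra2a isoform the control (grey) lies to the left of the other libraries with no overlap.

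Srsf11 combined a lower gene level with a shift towards retained introns. Its retained-intron transcript ENSMUST00000152274 took 24 of 295 reads in the control (8.14%), 54 of 135 in Tut1f/f;Cre (40.0%), 43 of 147 in Trp53f/f;Cre (29.3%) and 37 of 102 in the double-floxed library (36.3%). It differed in all 3 comparisons with the control, with an adjusted p of 3.83e-12, 1.24e-06 and 2.48e-08 in the exact tests. The first exon of this transcript, chr3:158022841-158023422, begins inside the intron and contains the whole 117-base poison exon of Srsf11 printed above, with intronic bases on either side. Other isoforms also took a larger share, the coding variant ENSMUST00000069025-0 (8.47%, 23.0%, 27.2% and 22.5%) in all 3 comparisons, and the read-named isoform with most reads (3.05%, 17.0%, 17.7% and 9.80%) in the first and second.

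A pair of other coding isoforms of Srsf11 were read mainly in the control. ENSMUST00000072875 had 72 reads in Tut1f/f (24.4%) and 3, 3 and 4 in the other libraries (2.22%, 2.04% and 3.92%). The variant ENSMUST00000121326-1, built on the transcript with the longest coding sequence, had 66 reads in Tut1f/f (22.4%) and 4, 3 and 1 in the others. Both differed in all 3 comparisons, with differences of -19.4 to -22.4 percentage points. The second read-named isoform took 11.2% in Tut1f/f and 2.22%, 2.72% and 0.98% in the others, and was counted only for the double-floxed library. Another retained-intron transcript, ENSMUST00000133090, took 6.44%, 3.70%, 8.16% and 11.8% and was not counted in any comparison.

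In Tra2a an annotated coding transcript took a smaller share and an isoform with no annotation a larger one. The coding transcript ENSMUST00000031841 took 84 of 265 reads in the control (31.7%), 37 of 310 in Tut1f/f;Cre (11.9%), 31 of 348 in Trp53f/f;Cre (8.91%) and 29 of 228 in the double-floxed library (12.7%). The read-named isoform with most reads took 24.2%, 53.5%, 55.2% and 56.1% in the same order. Both differed in all 3 comparisons. Read-named isoforms of all genes also took their lowest share in the control, 13.6% of gene reads against 16.3%, 16.8% and 16.4%. When read-named isoforms were left out, ENSMUST00000031841 took 83.2%, 84.1%, 70.5% and 69.0% of the reads that remained and was not counted in any comparison, with differences of 0.92, -12.7 and -14.1 points. Fewer reads remained there, and the coding potential of the read-named entries was not assessed. A second read-named isoform took 37.7%, 32.3%, 32.2% and 25.4% and was counted only for the double-floxed library (adjusted p = 0.038 in the exact test), a call that was lost with no minimum of reads per isoform.

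Srsf2 and Srsf7 each had 1 isoform that differed in 1 comparison. Srsf2 reads lay mostly on the retained-intron transcript ENSMUST00000138484, with 83.1%, 67.1%, 77.9% and 59.7%, and the control was above the double-floxed library (59.7% against 83.1%, a difference of -23.5 points, adjusted p = 0.028 in the exact test). With read-named isoforms left out the difference was -11.9 points (adjusted p = 0.042 in the exact test). Srsf2 had 62 to 95 reads per library. None of them lay on an entry of coding biotype, so these shares are of the other entries alone. They do not show how much of all Srsf2 RNA keeps the intron. Srsf7 ENSMUST00000235069, a coding transcript, took 18.4%, 20.8%, 28.5% and 24.6%, and differed between Trp53f/f;Cre and Tut1f/f by 10.1 points (adjusted p = 0.00013 in the exact test). The main coding transcript of Srsf7, ENSMUST00000063417, took 38.3%, 36.3%, 29.9% and 29.4%, and the read-named isoforms with at least 10% of reads in a library took 11.5% to 16.2% and 6.12% to 10.7%.

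For Srsf3, Srsf5, Srsf6 and Tra2b no isoform met the threshold. Srsf6 read almost wholly as its coding transcript ENSMUST00000130411 (98.7% to 99.5%), and no entry with its poison exon was analysed here. The coding transcript of Srsf3, ENSMUST00000130216, took 66.3%, 61.2%, 62.4% and 66.4%, and a read-named isoform took 11.7% to 17.2%. The coding transcripts of Srsf5 ENSMUST00000094693 and ENSMUST00000110352 took 37.6% to 47.5% and 10.2% to 12.3%, and its main read-named isoform took 11.2% to 15.4%. Tra2b reads lay mostly on the coding variant ENSMUST00000161286-0, with 66.8% to 73.7%. The 2 entries of Srsf1 were read-named, the first with 58.8%, 61.1%, 65.5% and 88.0% of its 17 to 29 reads and the second with the rest.

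**Figure D4:**
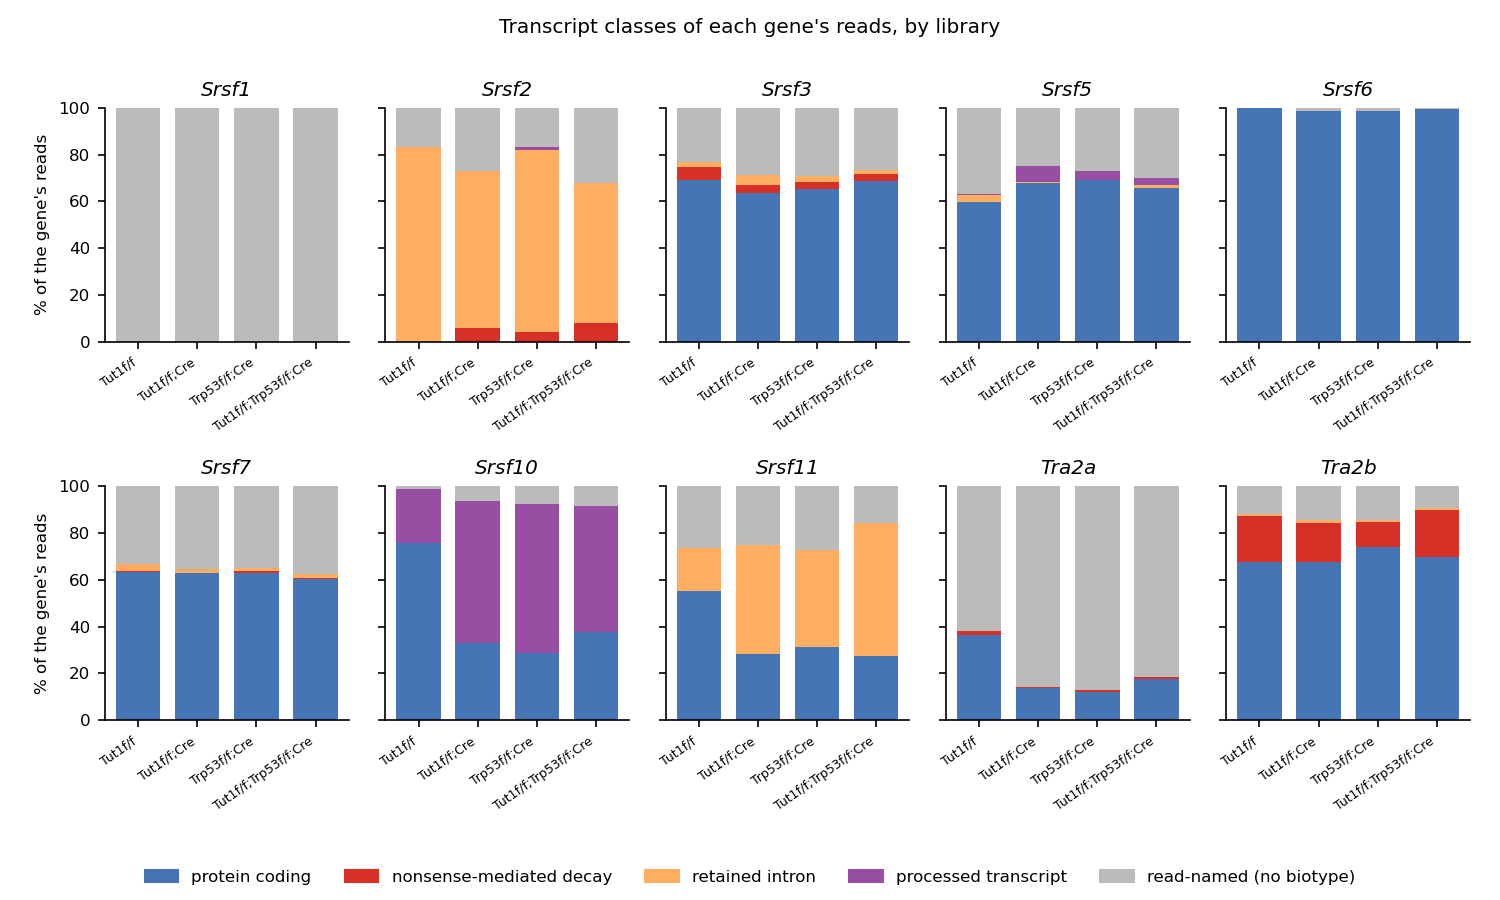
Share of each gene's reads by transcript class in the 4 libraries, where numbered variants take the class of the Ensembl transcript they are named after. The processed transcripts of Srsf10 (23.4% in Tut1f/f against 60.9%, 63.4% and 53.9%) and the retained introns of Srsf11 (18.3% against 46.7%, 41.5% and 56.9%) stand out, while NMD reads are most numerous in Tra2b and Srsf3. On few reads, the NMD share of Srsf2 is above that of Srsf3 in the libraries with Cre mRNA (5.71%, 4.21% and 8.06%).

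Of the 16 annotated NMD transcripts, 5 had reads, 4 of them with a poison exon. The NMD variant of Tra2b, ENSMUST00000162413-1, was the most used. It is named after ENSMUST00000162413, which holds the Tra2b poison exon, but the exons of the variant itself are not known. The plain transcript had 5 reads in the control and 2, 1 and 1 in Tut1f/f;Cre, Trp53f/f;Cre and the double-floxed library. The variant took 156 of 816 reads in the control (19.1%, with a Wilson interval of 16.6% to 22.0%), 46 of 289 in Tut1f/f;Cre (15.9%), 30 of 285 in Trp53f/f;Cre (10.5%) and 93 of 470 in the double-floxed library (19.8%). The Trp53f/f;Cre library was below the control (10.5% against 19.1%, a difference of -8.59 points, adjusted p = 0.0074 in the exact test) and below the double-floxed library by 9.26 points (adjusted p = 0.036), both short of the 10-point threshold. Trp53f/f;Cre was not separated from Tut1f/f;Cre in this share or in the level of the gene.

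The NMD transcript of Srsf3, ENSMUST00000037776, which includes its 456-base poison exon, took 87 of 1660 reads in the control (5.24%), 25 of 769 in Tut1f/f;Cre (3.25%), 25 of 830 in Trp53f/f;Cre (3.01%) and 31 of 1060 in the double-floxed library (2.92%). The difference from the control reached -2.32 points, with an adjusted p of 0.038 for the double-floxed library, 0.064 for Trp53f/f;Cre and 0.14 for Tut1f/f;Cre in the exact tests. The poison-exon transcript of Tra2a, ENSMUST00000203820, had 5, 1, 3 and 2 reads, and the Srsf7 variant ENSMUST00000234503-0 had 5, 0, 6 and 2. A count of 0 in 515 Srsf7 reads allows a share of up to 0.583%, taken as 3 counts, while the Wilson interval in the plot of NMD isoforms reaches 0.740%. The NMD transcript of Srsf2, ENSMUST00000176834, which keeps the normal stop ahead of a later junction, had 0 of 89 reads in Tut1f/f, which allows up to 3.37% by 3 counts and 4.14% by the Wilson interval, and 4, 4 and 5 in the other libraries (5.71%, 4.21% and 8.06%). These counts are too low to rank the libraries.

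**Figure D5:**
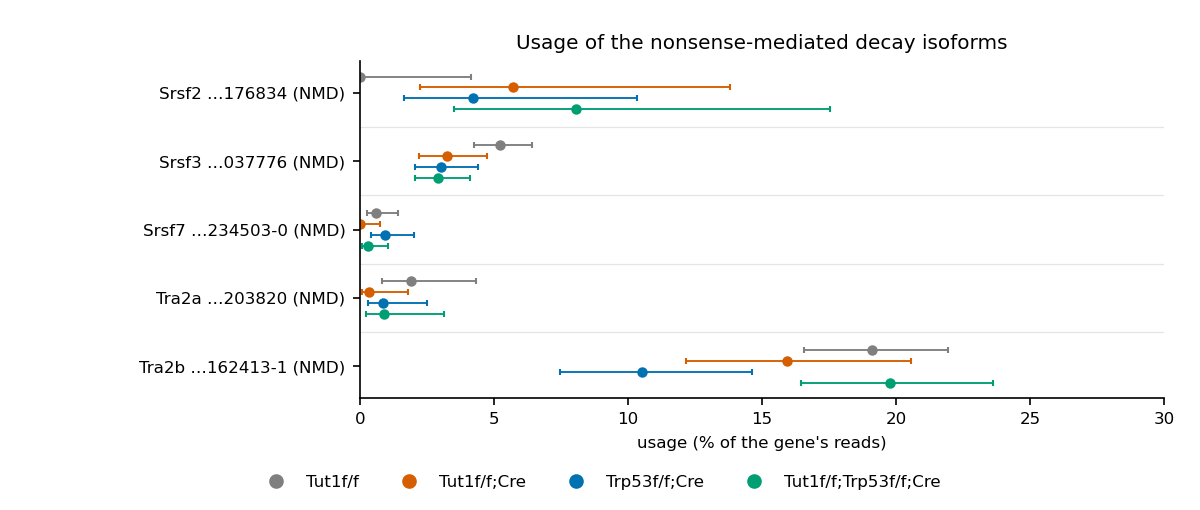
Usage of the 5 NMD isoforms that were read 10 times or more, in percent of the gene's reads with Wilson 95% intervals. Tra2b is lowest in Trp53f/f;Cre at 10.5%, and Srsf3 is highest in Tut1f/f at 5.24%.

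Counted per gene, the share of plain transcripts of NMD biotype could be tested only for Srsf3 and did not meet the threshold in any comparison. Over all genes it did so in 2.47%, 4.9% and 2.01% of genes in Tut1f/f;Cre, Trp53f/f;Cre and the double-floxed library against Tut1f/f, in 1.85% between the double-floxed library and Trp53f/f;Cre, and in 0% in the remaining comparisons. With variants included 2 or 3 SR genes could be tested, Tra2b among them, and none met the threshold, beside 6 of 333, 13 of 332 and 5 of 342 genes against Tut1f/f and 6 of 296, 1 of 291 and 0 of 297 between libraries with Cre mRNA. Summed over the 10 genes, NMD transcripts with their variants took 4.09% of reads in the control, 2.56% in Tut1f/f;Cre, 1.87% in Trp53f/f;Cre and 3.36% in the double-floxed library, most of them from Tra2b and Srsf3. Without the variants the share was 1.53%, 1.01%, 0.884% and 0.979%, where plain NMD transcripts of all genes took 0.280%, 0.307%, 0.307% and 0.326% of gene reads. The control was thus highest for the 10 genes and lowest over all genes.

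The retained-intron share differed for Srsf11 in all comparisons with Tut1f/f, from 18.3% to 46.7%, 41.5% and 56.9%, and for Srsf2 in the double-floxed library, where it was lower. That made 1 of 6, 1 of 5 and 2 of 6 SR genes tested, beside 23.4%, 21.6% and 18.9% of all genes. Between libraries with Cre mRNA no SR gene differed, beside 1.3% of genes for the double-floxed library against Trp53f/f;Cre, 0% for Tut1f/f;Cre against Trp53f/f;Cre and 0.154% for the double-floxed library against Tut1f/f;Cre. The share over all genes was 0.926% of gene reads in Tut1f/f and 1.45% to 1.55% in the others. Srsf5 had 37 retained-intron reads in the control (3.04%) and 1, 1 and 9 in the others, a difference of under 3 points. In Srsf3, 2 retained-intron transcripts went in opposite directions, ENSMUST00000147265 with 36, 7, 3 and 7 reads and ENSMUST00000233885 with 3, 23, 18 and 11. Both were described after their values were seen, and neither took 10% of the gene's reads.

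Because a retained intron can also carry a poison exon, reads were summed over annotated entries whose exons cover a poison exon from its first base to its stop, a measure chosen after the values were seen and not tested. For Srsf11 these were 33, 57, 49 and 46 reads (11.2%, 42.2%, 33.3% and 45.1%), all from retained-intron transcripts. For Srsf3 they were 124, 35, 29 and 38 reads (7.47%, 4.55%, 3.49% and 3.58%), and for Tra2b 168, 51, 33 and 98 reads (20.6%, 17.6%, 11.6% and 20.9%). Most of the Tra2b reads came from the numbered variant, which was taken to have the exons of the transcript it is named after. Srsf7 gave 3.67%, 2.14%, 2.33% and 1.90%, and Tra2a 1.89%, 0.323%, 0.862% and 0.877%. The share was highest in the control for Srsf3, Srsf7 and Tra2a, although Srsf7 and Tra2a rest on few reads, and lowest in the control for Srsf11, whose retained-intron transcripts do not splice the poison exon as an exon of its own.

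Other genes of the pathway were counted from a list of 33, of which 31 passed the expression filter: further SR proteins, SR-rich cofactors, SR kinases and importers, splice site partners, and NMD and exon junction factors. Against Tut1f/f, 7 were higher and 2 lower in Tut1f/f;Cre (13.1% and 12.8% of all genes), 7 and 2 in Trp53f/f;Cre (13.2% and 14.3%), and 6 and 0 in the double-floxed library (10.1% and 9.94%), with 0 between libraries with Cre mRNA. Son, which encodes a nuclear speckle protein rich in SR repeats, was at 179 CPM in Tut1f/f and 1169, 860 and 1045 CPM in the others, a log2 ratio of 2.26 to 2.71. Srsf9, another SR protein, was at 6.76 CPM in the control and 32.7, 32.6 and 25.5 CPM in the others. Smg5, an NMD factor, was at 4.75 CPM and 14, 11.2 and 19.4 CPM. These 3 genes were named because they were at least 4-fold apart in a comparison.

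Among 2292 non-member genes with a mean of at least 50 CPM, the profiles closest to the mean of the 10 genes over the 4 libraries were those of Prdx5, Rap1a and Psmg3, with root-mean-square distances of 0.011, 0.030 and 0.033 on the centred log2 scale. The mean profile itself was 0.20 in the control, -0.17 in Tut1f/f;Cre, -0.05 in Trp53f/f;Cre and 0.02 in the double-floxed library. Prdx5 was at 118, 92.2, 101 and 106 CPM in that order. With 4 libraries such a likeness is a description only.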

How the data were processed

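The authors deposited whole-number read counts per isoform, 1 column per library, not normalized. The labels name a Nanopore cDNA-PCR kit and the submitters' processing notes name mm10. The study's methods name minimap2 with an Ensembl transcriptome and FLAIR for its libraries of embryonic pallium, and which tools, strand handling and filters made this table of neural stem cells was not given in the sources used here. Symbols, biotypes, positions (1-based) and sequences came from GENCODE M21 (GRCm38). Entries without a gene stayed out of library sizes and tests. Isoform counts were summed per Ensembl gene.

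The members and lists were chosen with earlier results of these data known. Gene counts were fitted with edgeR 4.0.16 in R 4.3.3 (its quasi-likelihood test, TMM scaling, default filter, called at 2-fold and Benjamini-Hochberg adjusted p under 0.05). DESeq2 1.42.0 was an alternative. Ratios of single libraries had exact conditional binomial intervals. Medians used a pseudocount of 0.5 CPM. Usage and class shares were tested by Fisher's exact test (at least 20 gene reads per library and 10 isoform or class reads per pair). CPM had exact Poisson and shares Wilson 95% intervals. A count of 0 was set against 3 counts. Isoforms were named when they differed in a pair, reached 10% of a gene's reads, or were NMD isoforms with 10 reads. Pathway genes were named when different in both Tut1 comparisons (0 were) or 4-fold in any. The fits and tests were run on simulated data with known differences. The simulation held no control set apart from the other libraries, so it does not show how they behave on these data. Python 3.11.15, numpy 2.4.6, scipy 1.17.1, pandas 2.3.3 and matplotlib 3.10.9 were used.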

Additional observations from a re-analysis of the deposited data

Results flagged for a closer look

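The comparisons of Tut1 status with and without floxed Trp53 went in opposite directions for 5 of the 10 genes, each with intervals that excluded no change. Tut1f/f;Cre against Tut1f/f gave a log2 ratio of -0.69 for Srsf3, -1.19 for Srsf5, -0.25 for Srsf7, 0.64 for Tra2a and -1.08 for Tra2b. The double-floxed library against Trp53f/f;Cre gave 0.54 for Srsf3, 0.71 for Srsf5, 0.28 for Srsf7, -0.42 for Tra2a and 0.91 for Tra2b. The difference between the comparisons was not tested, since each rests on 1 library per group. Tut1f/f;Cre and Tut1f/f also differ in Cre mRNA, whereas the double-floxed library and Trp53f/f;Cre both received it. The same opposite pattern was seen in 1650 of 9878 genes (16.7%). Tut1 reads (37 and 11, then 27 against 14) went in opposite directions in these comparisons too, as did Xist and the Y-linked genes, and their part in the result was not tested.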

How the results depend on the processing

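No paired analysis was possible because the labels give no replicate numbers and each group holds 1 library. A 1.5-fold threshold counted 6, 6 and 3 SR genes as different from Tut1f/f in Tut1f/f;Cre, Trp53f/f;Cre and the double-floxed library, 2 between that library and Trp53f/f;Cre and 2 between it and Tut1f/f;Cre, beside 4177, 4377, 3447, 1824 and 1164 of all 9882 genes. At 2-fold, library totals left 1 SR gene in Tut1f/f;Cre against Tut1f/f. They moved the median of all genes to 0.11, 0.09 and 0.12 in the comparisons with Tut1f/f and the summed log2 ratio to -0.49, -0.46 and -0.10, and to 0.36 for the double-floxed library against Trp53f/f;Cre. With 20 points required, 5, 7 and 7 SR isoforms differed from Tut1f/f, beside 874 of 18376, 941 of 18549 and 606 of 18845 in all. With read-named isoforms left out, 7 of the 10, 8 of the 11 and 7 of the 11 were kept, and among those still tested only Tra2a ENSMUST00000031841 was lost. Leaving out 1 library in turn also dropped the Trp53 term, and gave 0 to 7 SR isoforms in the usage model, the 7 without Trp53f/f;Cre, and 0 SR genes in each case in the gene model. The other 131 alternative values kept their counts within 1.5 times or moved by less than their counting interval, among them those with variants included, which was chosen after seeing the data. Of the alternative values of single genes and isoforms, 164 stayed within their counting interval and 48 moved outside it, with no called ratio changing sign. Depth limits Srsf1 and Srsf2 most.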
